A study of Macaca mulatta with 8 samples.

Results

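The nuclei described here were called ependymal because they were selected on their counts of motile cilium genes. A nucleus was a member when it held at least 500 unique transcript counts (UMIs) and 300 genes, had a UMI of at least 4 of the genes DNAH6, DNAH9, SPAG17, CFAP54, HYDIN and ADGB, and gave these genes together at least 20 of every 10000 of its UMIs. The rule found 1289 members among the 58220 nuclei that passed the first pair of limits, or 2.21% (exact 95% interval 2.10 to 2.34). They were compared with the 56931 other nuclei, and with 6739 nuclei of astrocytes, the glial class closest to ependyma in lineage.

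Ependymal cells form the ciliated epithelium on the wall of the brain ventricles. Each mature cell carries a tuft of motile cilia, whose beat moves cerebrospinal fluid along the wall. The beat comes from dynein arms on doublet microtubules, is patterned by radial spokes and a central pair, and rests on basal bodies that the cell makes in large numbers before it grows the tuft. The genes are switched on by a cascade of transcription factors in which GMNC and MCIDAS stand at the top and FOXJ1 and the RFX factors act on the axoneme genes, as known mainly from mouse and frog.

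The study sequenced nuclei from frozen brain of male rhesus macaques with the 10x Genomics 3′ chemistry v3. The exposed animal (SEV, 1 macaque, 4 samples) breathed sevoflurane, an inhaled anaesthetic, at about 2.5 to 3% for 4 hours on 3 occasions, first at about postnatal day 7 and then at 14 and 28 days, where the labels leave unclear whether these last values are ages or intervals. The control animals (Ctrl, 2 macaques pooled, 4 samples) have the treatment label control, and no other agent or allele is named for either group. The tissue label is hippocampus, whereas the protocol text of the same samples speaks of amygdala. The samples of a group are aliquots of 1 pool, and the age at collection is not given in the sources used here.

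All 8 libraries came in 1 matrix, and no source used here ties a library to a sample. The matrix therefore counted as 1 sample, no p-value was computed, and no effect of sevoflurane on ependymal nuclei was assessed. The libraries, numbered 1 to 8 by their barcode suffix, held 35806547 to 47007082 UMIs each, with a median of 3189 to 3426 UMIs per nucleus in libraries 1 to 4 and 5730 to 5831 in libraries 5 to 8. Members had a median of 2610 UMIs and 1711 genes, against 4221 UMIs and 2161 genes in other nuclei and 2183 UMIs in astrocyte nuclei. The depth of members ran the other way between the libraries. Their median was 3014 to 3889 UMIs in libraries 1 to 4 and 2031 to 2275 in libraries 5 to 8. Among kept nuclei, 407 pairs from different libraries had the same barcode sequence, and 1 of these pairs was made of 2 members. The levels below are UMIs of a gene per 1000000 UMIs of the class (CPM), and every interval is an exact 95% interval that covers counting error only.

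Ependymal nuclei were present in every library, at shares that differed more than 4-fold. Their share was 0.944% and 0.865% in libraries 1 and 2, 3.90% and 3.53% in libraries 3 and 4, and 1.83% to 1.96% in libraries 5 to 8. The intervals of these sets of libraries did not overlap, while within each set they did. Since detecting 4 genes depends on depth, every nucleus was also thinned to 1000 UMIs, which left out 1844 shallower nuclei. The thinned shares were 0.712% and 0.747% in libraries 1 and 2, 3.41% and 2.97% in libraries 3 and 4, and 1.49% to 1.66% in libraries 5 to 8, so the order of the sets stayed as it was.

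**Figure D1:**
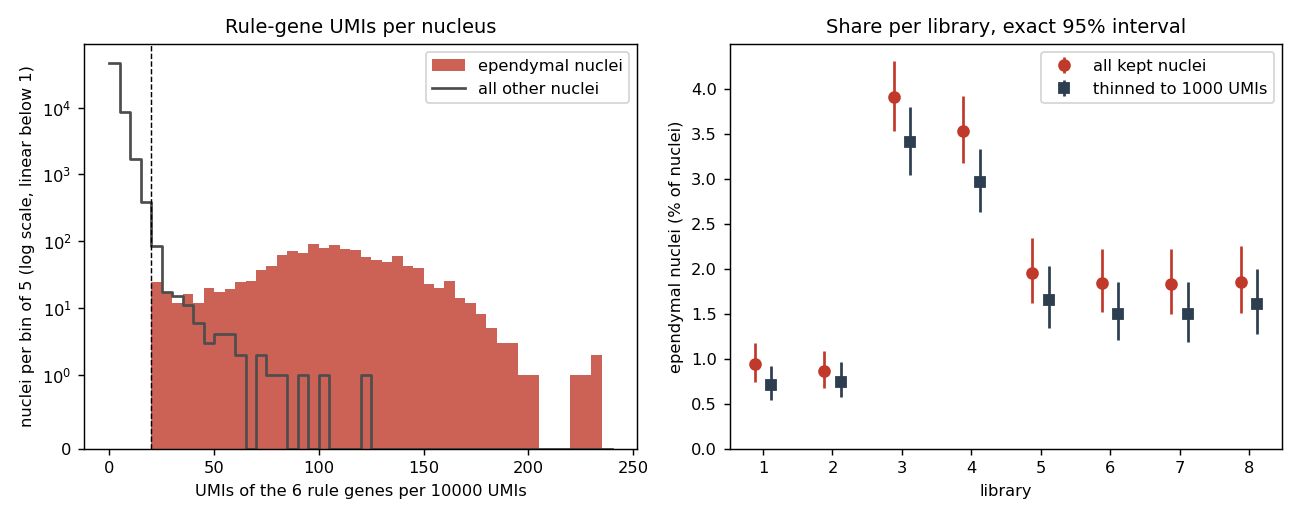
Left, nuclei per bin of 5 (log scale) by their UMIs of the 6 rule genes per 10000 UMIs, for ependymal nuclei (filled) and all other nuclei (line), with the limit of 20 dashed. Right, ependymal nuclei as a percent of kept nuclei in each library, with exact 95% intervals, for all kept nuclei (circles) and after thinning to 1000 UMIs (squares): libraries 3 and 4 were highest and libraries 1 and 2 lowest on both measures.

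The genes of the rule chose the members, so their levels are a description only. DNAH9, a heavy chain of the outer dynein arm, stood at 2772 CPM in ependymal nuclei and 149.9 CPM in other nuclei. CFAP54, HYDIN and SPAG17, proteins of the central pair, stood at 2256, 1744 and 748 CPM in ependymal nuclei, against 39.8, 25.5 and 11.3 CPM in other nuclei. DNAH6, an inner-arm heavy chain, had 1664 CPM against 70.8, and ADGB, androglobin, 1020.3 CPM against 4.85. All 6 genes had a UMI in 881 members, 5 in 315 and only 4 in 93. The rule also lists DNAH12 and CFAP47, which the matrix holds only under an identifier, so that they took no part in the choice, and DNAH11, which was not analysed here. DNAH12, an inner-arm heavy chain, reached 889 CPM in ependymal nuclei and 3.66 in others, and had a UMI in 85.4% of members. Microglia, which carry no motile cilia, had a DNAH12 UMI in 1.30% of nuclei at a median of 1689 UMIs, against the members' median of 2610. CFAP47, a central pair protein, reached 387 CPM in ependymal nuclei and 7.09 in others, with a UMI in 58.3% of members and 0.595% of microglia.

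Members were spread widely around the rule. The rule genes made up a median of 105 UMIs per 10000 in members (lowest 20.1, highest 233), against 1.29 in other nuclei, of which 99% lay below 14.8. Just inside the limit, 24 members held 20 to 25 rule UMIs per 10000, of which 79.2% were called doublets, that is, barcodes that look like a sum of a pair of nuclei, and 83.3% met a panel other than that of astrocytes. Just outside it, 67 nuclei with at least 4 rule genes held 15 to 20 per 10000, of which 16.4% were called doublets and 97.0% met such a panel. On the other limit, the 93 members with 4 rule genes had 20960 CPM summed over axoneme genes outside the rule, and the 52 nuclei with 3 rule genes just outside had 9381 CPM. These sums, and those that follow, describe groups cut on the rule's own counts and support nothing further. With members cut by rule UMIs into 3 tertiles (lower, middle and upper), the same axoneme genes summed to 20875, 33181 and 36972 CPM, while the neuron markers summed to 2299, 807 and 614 CPM. The lower tertile also held 29.3% doublets, against 2.33% and 2.79% in the others.

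Some members carried genes of other cells. In all, 148 members (11.5%) were called doublets and 158 (12.3%) met the rule of a neuron, oligodendrocyte, precursor, microglia or vascular marker panel. Together these made 221 members (17.1%), and the counts of called genes and the named genes were computed again without either set. The neuron markers summed to 1258 CPM over members (815 to 2207 by library), which is 19.8% of their 6360 CPM in neuron nuclei. Oligodendrocyte markers summed to 841 CPM (78.8 to 1368 by library, highest in libraries 3 and 4), or 4.15% of the level in oligodendrocyte nuclei, and microglial markers to 174 CPM, or 2.74%, with AIF1 at 0. Markers of oligodendrocyte precursors summed to 1197 CPM (1017 to 1310.0 by library), or 17.6% of the level in precursor nuclei. These precursor markers summed to 1167 CPM in other nuclei and 1730.5 CPM in astrocyte nuclei. In members without doublets and other panels, the precursor markers summed to 1137 CPM and the neuron markers to 737 CPM. Vascular markers summed to 176 CPM, with library 2 highest at 489.5. The part of these transcripts in the levels of members was not tested gene by gene.

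The upstream programme of multiciliated cells was higher in ependymal nuclei. A gene counted as measured at 10 CPM or more in either class, and was called at a ratio of at least 2 in the same direction in all 8 libraries. Of 10554 measured genes, 15.4% were called higher in ependymal nuclei than in other nuclei and 12.7% lower. Of the 10 measured genes of this programme, 8 were called higher and none lower, with a median log2 ratio of 2.84, against 0.08 over all measured genes. FOXJ1, the forkhead factor of motile cilia, had 16.3, 45.2 and 81.8 CPM (lowest, median and highest library) in ependymal nuclei, against 0.254 to 3.75 CPM across the libraries of other nuclei. The libraries of the classes did not overlap, and the pooled ratio was 44.7 (38.4 to 52.1). GMNC, the geminin-like protein that starts the cascade, had 19.6, 35.2 and 55.2 CPM in ependymal nuclei and 39.0 CPM pooled, against 0.215 CPM in other nuclei, a ratio of 182 (137 to 242). MYB, a transcription factor of early multiciliogenesis, had 26.1, 40.7 and 45.3 CPM in ependymal nuclei, against 0.902 to 1.63 CPM in libraries of other nuclei, and a ratio of 36.1 (30.1 to 43.1). RFX2, a winged-helix factor that acts with FOXJ1, had 758, 874 and 1024 CPM in ependymal nuclei and was 21.4 times as high as in other nuclei. RFX3, its relative with wider use in ciliated cells, had 1255 CPM against 514, a ratio of 2.44. TP73, which acts above FOXJ1 in mouse, had 76.4 CPM against 10.0. In libraries 5 to 8 alone the log2 ratio of FOXJ1 was 6.18 and that of GMNC 8.27, against 5.48 and 7.50 over all libraries.

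Among the genes that build centrioles in bulk, DEUP1 was called higher, while MCIDAS and CCNO were at or near 0. DEUP1, the core of the deuterosome on which new centrioles grow, had 43.8 CPM in ependymal nuclei and 6.53 CPM in other nuclei. MCIDAS, the partner of GMNC, was at 0 in members, and CCNO, a cyclin-like protein of centriole amplification, at 0.413 CPM. FOXJ1 had a UMI in 15.9% of members and in 0.757% of microglia, and RFX2 in 87.3% of members and in 3.95% of microglia.

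Genes of the axoneme, the moving core of the cilium, were higher nearly throughout. The lists on outer and inner dynein arms, dynein arm assembly, radial spokes, the central pair and the doublet microtubules held 94 genes in the matrix, of which 87 were measured and 83 were called higher, none lower. The 6 genes that chose the nuclei are not in these lists, but they belong to the same structures and were read in the same nuclei, so these counts are a description and no independent evidence of the direction. Summed over these lists, ependymal nuclei had 30259 CPM (25875 to 31857 by library), against 2240 CPM in other nuclei and 1713 CPM in astrocyte nuclei. In the 1068 members left without doublets and without nuclei that met another panel, the sum was 34622 CPM.

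Among outer dynein arm genes, 7 of 8 measured were called higher. ARMC4, part of the complex that docks the arm on the microtubule, had 378, 491 and 562 CPM in libraries of ependymal nuclei, against 1.63 to 9.81 CPM in libraries of other nuclei, with a pooled ratio of 109.7 (103 to 117). DNAI1, an intermediate chain of the arm, had 419.7 CPM in ependymal nuclei and 5.26 CPM in other nuclei. DNAH5, the heavy chain most often mutated in primary ciliary dyskinesia in people, had 352 CPM against 14.4. Every one of the 8 libraries showed these differences, and the log2 ratio of ARMC4 was 7.80 in libraries 5 to 8 alone, against 6.78 over all. Inner arm genes were called higher in 11 of 11 cases: WDR63, an intermediate chain, had 412, 455 and 573 CPM in ependymal nuclei and a ratio of 184 (170.3 to 199) to other nuclei. DNAH1, an inner-arm heavy chain, had 242 CPM against 2.48, and DNALI1, a light intermediate chain, 119 CPM against 1.89.

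Dynein arms are put together in the cytoplasm before they enter the cilium, and 9 of 10 measured assembly factors were called higher. DNAAF1 had 75.5, 115 and 166 CPM in libraries of ependymal nuclei, 62.2 times its level in other nuclei. DNAAF3 had 28.3 CPM against 0.768. PIH1D3, a further assembly factor, had 15.1 CPM against 0.154, a ratio of 98.2. Its level lies below the stricter minimum of 20 CPM, and without doublets it was no longer called, although the ratio was 109.3.

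All 18 measured genes of the radial spokes and the nexin-dynein regulatory complex, the link between neighbouring doublets, were called higher. DRC7, a subunit of that link, had 27.7, 69.1 and 149 CPM in libraries of ependymal nuclei, against 0.206 CPM pooled over other nuclei, with a ratio of 291 (223 to 386). DRC3, of the same complex, had 1018 CPM against 17.7, and LRRC23, of the radial spoke, 213 CPM against 3.48. The central pair list was also called higher in full, 14 of 14. SPAG6, on the central pair, had 385, 588 and 715 CPM in ependymal nuclei and 104 times its level in others. CFAP65 had 123 CPM against 1.94, and AK7, an adenylate kinase needed for normal cilia in mouse, 281, 311 and 429 CPM by library of ependymal nuclei, with library 8 highest. Of 27 measured proteins inside and along the doublet, 25 were called higher. CFAP45, which lies inside the doublet, had 101, 159.5 and 181 CPM in ependymal nuclei, against 0.0509 to 1.10 CPM in libraries of other nuclei, a ratio of 378 (314 to 458). SPATA17 had 570.4 CPM against 4.02. Libraries 5 to 8 alone gave larger log2 ratios for DRC7 (9.64, over all 8.19), DRC3 (6.46, over all 5.84) and CFAP45 (9.84, over all 8.56), while libraries 1 to 4 alone gave 7.42 for DRC7.

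**Figure D2:**
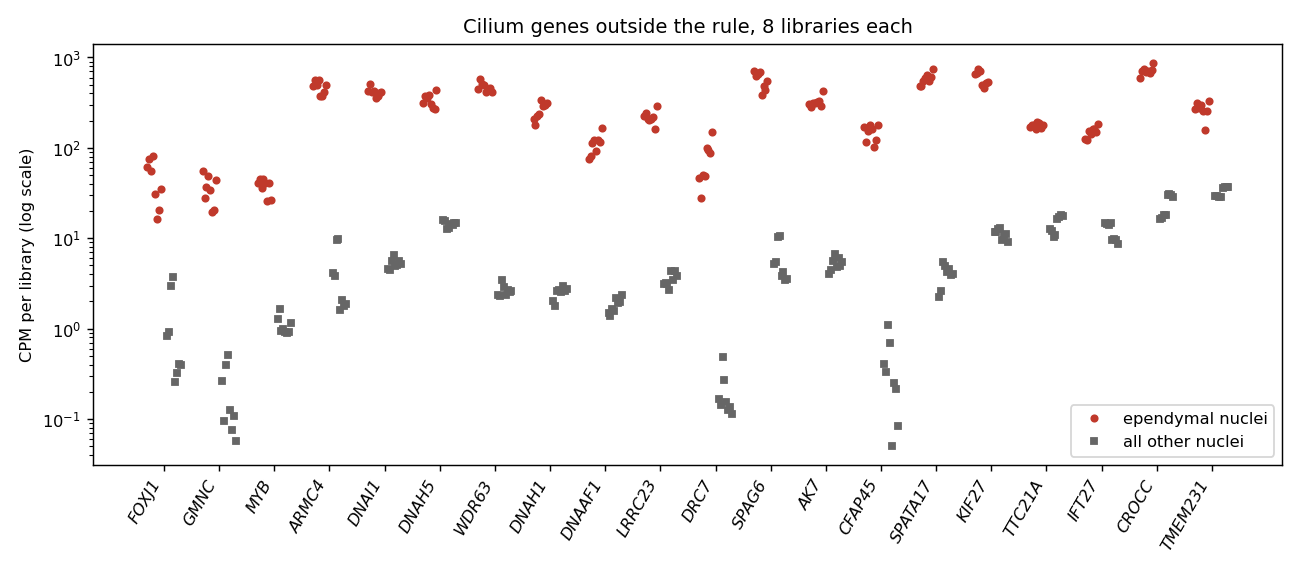
Level of 20 cilium genes that took no part in the rule, in CPM on a log scale, with 1 point per library for ependymal nuclei (circles) and all other nuclei (squares). For each gene drawn, all 8 libraries of ependymal nuclei lie above all 8 libraries of other nuclei. Only genes already called higher in ependymal nuclei were drawn, so that choice largely fixed this separation.

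Genes of ciliary transport, the basal body and tubulin modification were mostly higher too, with medians below that of the axoneme lists together. Intraflagellar transport (IFT) carries cargo along all cilia, and with the BBSome, a cargo adaptor, it gave 26 of 34 measured genes called higher, with a median log2 ratio of 1.85, against 4.61 for the axoneme lists together. TTC21A, an adaptor of the retrograde IFT complex, had 164, 179 and 194 CPM in ependymal nuclei and 14.2 CPM in other nuclei. IFT27, a small GTPase of the anterograde complex, had 147 CPM against 12.1. Basal body and transition zone genes were called higher in 22 of 30 cases, with a median of 1.56. CROCC, the rootlet protein that anchors the basal body, had 593, 715 and 867 CPM in libraries of ependymal nuclei, 30.7 times its level in other nuclei. TMEM231, of the transition zone at the base of the cilium, had 279.6 CPM against 32.6, and CNTRL, centriolin, 274 CPM against 36.3. Of 20 measured genes of tubulin modification and ciliary kinesins, 14 were called higher, with a median of 3.96. That median lay between those of the radial spoke list (3.91) and the outer dynein arm list (3.99). TTLL8, which adds glycine to axonemal tubulin, had 63.4 CPM against 0.111, a ratio of 574 (405 to 834), and a log2 ratio of 10.07 in place of 9.16 with 5% free RNA taken off. KIF27, a kinesin needed for motile cilia in mouse, had 660.3 CPM against 11.3. Over all 10 cilium lists, 153 of 181 measured genes were called higher and none lower, and the medians stated here were not tested against each other.

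Outside the rule, the genes with the largest ratios were mostly low or near 0 elsewhere. ANKRD66, an ankyrin repeat protein, had 34.0, 54.3 and 78.3 CPM in libraries of ependymal nuclei and 0.0891 CPM in other nuclei, a ratio of 645 (439 to 981). LRRC71, a leucine-rich repeat protein, had 113, 145 and 179.8 CPM in ependymal nuclei and 0.267 in others, a ratio of 579 (463 to 732). ARMC3, an armadillo repeat protein, was the most abundant of this set at 644, 801 and 963 CPM in ependymal nuclei against 2.20 CPM in others. LRRC71 had a UMI in 36.6% of members and 0.108% of microglia, and ARMC3 in 85.3% of members and 1.41% of microglia. ZNF475, a zinc finger gene, had 53.1 CPM against 0.157. LHB, the gene of the luteinising hormone beta subunit, had 84.9 CPM against 0.154, but it lies within the span of RUVBL2 in the RefSeq annotation of assembly T2T-MMU8v2.0, and reads of these genes may not be separable. The called genes of highest level were NPAS3, a neural transcription factor, at 4166 CPM in ependymal nuclei against 1213 in others, SYNE1, a nuclear envelope linker, at 2643 against 566, BEND5 at 2639 against 1069, and CFAP299 at 2371 against 69.1. Astrocyte nuclei had more NPAS3 than ependymal nuclei, at 5301 CPM, and less of the others, with SYNE1 at 796, BEND5 at 243 and CFAP299 at 116. Ratios to a level near 0 moved with the setting: for ANKRD66 the log2 ratio was 9.99 without library 3, 11.98 in libraries 5 to 8 and 8.56 in libraries 1 to 4, against 9.33 over all. With 5% free RNA taken off, it was 10.09 for LRRC71, 9.25 for ARMC3 and 9.98 for LHB, against 9.18, 8.65 and 9.11, and in libraries 5 to 8 alone it was 6.21 for CFAP299, against 5.10, and 9.33 for ARMC3.

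Of the genes called lower in ependymal nuclei, those of highest level in other nuclei included RBFOX1, DLG2 and CSMD1. Among the other nuclei, 54.9% met the neuron panel, and 27614 met it and no astrocyte, oligodendrocyte, precursor, microglia or vascular panel. RBFOX1, a neuronal splicing factor, had 1485 CPM in ependymal nuclei and 7175 CPM in other nuclei, 4.83 (4.72 to 4.95) times lower. DLG2, a postsynaptic scaffold, had 1601 CPM against 5907, and CSMD1 1252 CPM against 5707. Over all measured genes, 12.7% were called lower and 15.4% higher. Of the 36 measured targets of anaesthetic gases, 28 were called lower and none higher, with a median log2 ratio of −1.77. They included GRIN1, the obligate NMDA receptor subunit, at 7.85 CPM against 55.2, GLRA3, a glycine receptor subunit, at 9.71 against 59.2, and RYR3, a calcium release channel, at 164 against 914. Without doublets these genes were lower still, with log2 ratios of −4.62 for GRIN1 (with them −2.81), −3.49 for GLRA3 (−2.61), −3.19 for RYR3 (−2.48), −2.95 for RBFOX1 (−2.27) and −2.89 for CSMD1 (−2.19). In libraries 5 to 8 alone, RYR3 was at −1.66 and GLRA3 at −1.95.

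Against astrocytes, the cilium genes stood apart by similar ratios. Of 10445 genes measured in this pair of classes, 12.1% were called higher in ependymal nuclei and 7.69% lower, with a median log2 ratio of −0.01. In the axoneme lists 84 of 87 measured genes were called higher, with a median of 4.87, and over all 10 cilium lists 156 of 182 were called higher and 2 lower. FOXJ1 had 58.7 CPM in ependymal nuclei and 2.57 CPM in astrocyte nuclei, and GMNC 39.0 CPM against 0.367. DEUP1 had 43.8 CPM against 1.29, a larger ratio (34.1) than against all other nuclei (6.71). CFAP46, of the central pair, had 66.3 CPM against 0.429, and CFAP52, of the doublet, 778 CPM against 4.71. CEP126, a centrosomal protein, had 689 CPM against 29.9. The 2 cilium genes called lower were RFX4, an RFX factor of neural progenitors and astrocytes, at 306 CPM in ependymal nuclei against 870.2 in astrocyte nuclei, and BBS2, a BBSome subunit, at 70.0 against 220.3. The log2 ratio of CFAP46 was 8.37 without library 5, 7.90 without doublets and 6.52 in libraries 5 to 8 alone, against 7.27 over all.

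**Figure D3:**
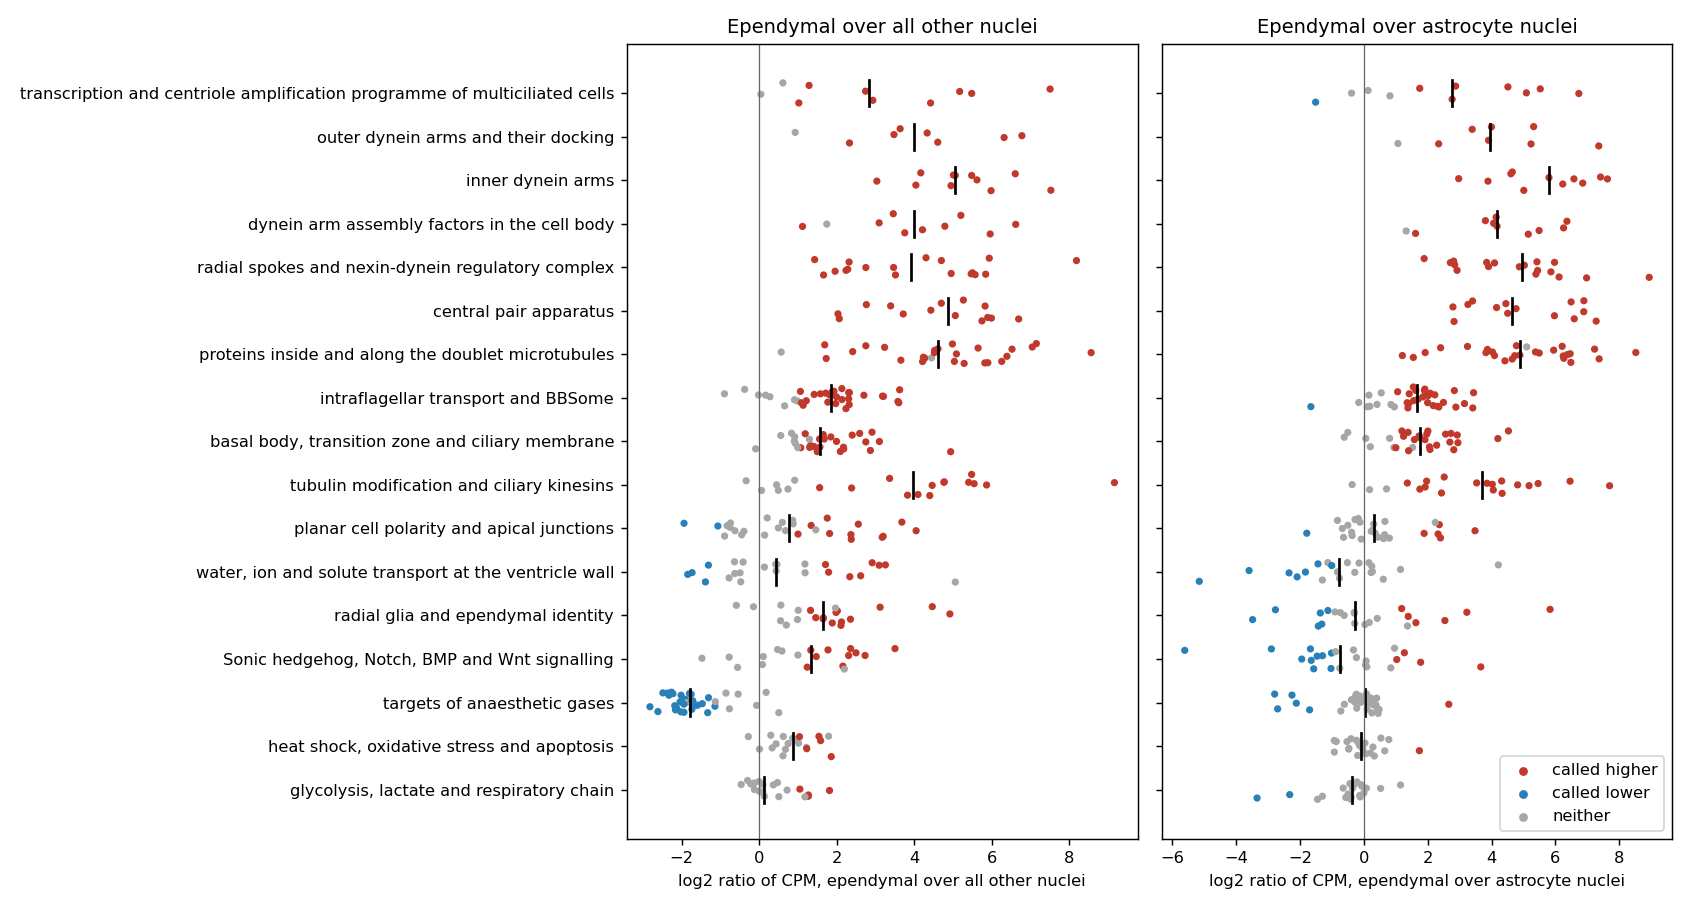
log2 ratio of CPM for each measured gene of 17 function lists, ependymal over all other nuclei (left) and over astrocyte nuclei (right), with 1 point per gene and a bar at the median. The medians of the 10 cilium lists lie above 0 in both, while the lists of transport, glial identity and signalling have medians above 0 against all other nuclei and below 0 against astrocyte nuclei; genes at 0 counts in 1 class are not drawn.

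The largest ratios to astrocytes rested on very few astrocyte counts. ANKRD66 had 57.4 CPM in ependymal nuclei and 1 count in astrocyte nuclei, so the interval of its ratio ran from 167 to 37177. Without library 4, which held that count, its log2 ratio was set by the floor of 3 counts, at 8.06 against 9.87 over all. CFAP45 had 157 CPM against 0.429, a ratio of 366 (177 to 913) and a log2 ratio of 9.51 without library 3, against 8.51 over all, and PRR29 124 CPM against 0.367. Among genes of high level, NRXN3, a presynaptic adhesion molecule, had 4907, 5369 and 6825 CPM in libraries of ependymal nuclei, 6.92 times the 766 CPM of astrocyte nuclei. DPP10, a subunit of potassium channels, had 4772 CPM against 1323, and BEND5 2639 CPM against 243. Other nuclei as a whole had 3756 CPM of NRXN3 and 2689 CPM of DPP10, less than 2-fold from ependymal nuclei. Neuron nuclei had 4679 and 3285 CPM of these genes.

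Ependymal nuclei shared part of the astrocyte repertoire and lacked part of it. The astrocyte panel chose the astrocyte nuclei, so the values of its genes are a description. SLC1A3, a glutamate transporter of astroglia and radial glia, had 943, 1316 and 1530.2 CPM in libraries of ependymal nuclei, and 2291 CPM in astrocyte nuclei. AQP4, the water channel of glial endfeet and ependyma, had 332 CPM against 428, and GJA1, connexin 43, 168 CPM against 167. These genes lay less than 2-fold from the astrocyte level and above that of other nuclei as a whole, which had 262, 44.0 and 19.6 CPM. The ratio of GJA1 to other nuclei was 4.84 in libraries 5 to 8 alone, against 8.56 over all. SLC1A2, the main glutamate transporter of mature astrocytes, had only 346 CPM in ependymal nuclei, against 9812 CPM in astrocyte nuclei. GFAP, the glial filament, had 206 CPM against 585, and SLC4A4, a bicarbonate cotransporter, 151 CPM against 1683. The summed panel stood at 2712 CPM in ependymal nuclei (1988 to 3029 by library), or 15.6% of its 17346 CPM in astrocyte nuclei, and 512 members (39.7%) met the astrocyte panel, 442 of 864 in libraries 1 to 4 and 70 of 425 in libraries 5 to 8. Meeting a panel depends on depth, and members were deeper in libraries 1 to 4.

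Genes outside the panel also fell on both sides. ACSBG1, a lipid-activating enzyme of astrocytes, had 5.58 CPM in ependymal nuclei and 298 CPM in astrocyte nuclei, 53.5 (36.7 to 81.2) times lower, with a log2 ratio of −6.77 without doublets and −5.00 in libraries 5 to 8 alone, against −5.74 over all. APOE, the lipid carrier, had 55.2, 80.1 and 114 CPM in libraries of ependymal nuclei, against 649 to 921 CPM in libraries of astrocyte nuclei, and was 11.1 (10.0 to 12.4) times lower. No library of ependymal nuclei reached the lowest of astrocyte nuclei for APOE. In the list of radial glial and ependymal identity, 13 of 21 measured genes were called higher than in other nuclei. Against astrocytes, 6 of 22 were called higher and 6 lower. Over all measured genes, 15.4% were called higher than in other nuclei, and 12.1% higher and 7.69% lower than in astrocytes. LRP2, the endocytic receptor megalin of the neuroepithelium, had 52.3 CPM in ependymal nuclei, 1.73 in other nuclei and 0.918 in astrocyte nuclei. S100B, a calcium-binding protein, had 377, 578 and 993 CPM in libraries of ependymal nuclei, 22.1 times the level of other nuclei and 5.82 times that of astrocyte nuclei. SLIT2, an axon guidance ligand, had 648 CPM against 69.2 in astrocyte nuclei, but 326 CPM in other nuclei as a whole and 403 CPM in neuron nuclei. VIM, the filament vimentin, had 50.8 CPM in ependymal nuclei and 5.84 CPM in other nuclei, a ratio of 8.70. In members with all 6 rule genes it was no longer called, although the ratio was 9.18. In libraries 5 to 8 alone the log2 ratio to other nuclei was 2.18 for VIM, against 3.12 over all, and 5.79 for S100B, against 4.47.

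Polarity genes position the cilia and the apical surface. Of 28 measured, 11 were called higher and 2 lower against other nuclei, beside 15.4% and 12.7% of all measured genes. Of 27 against astrocytes, 5 were called higher and 1 lower, beside 12.1% and 7.69%. CRB1, an apical polarity protein, had 1084, 1386 and 1564 CPM in libraries of ependymal nuclei, against 60.2 to 115 CPM in libraries of other nuclei and 283 CPM in astrocyte nuclei, with ratios of 16.6 (16.1 to 17.0) and 5.02 (4.83 to 5.21). CELSR1, a cadherin of planar polarity, had 69.8 CPM in ependymal nuclei, 5.44 in other nuclei and 6.24 in astrocyte nuclei. FZD3, a receptor of the same system, had 362 CPM against 70.2 in astrocyte nuclei, and ANKRD6, which binds its pathway in the cell, 298 CPM against 56.4. PRICKLE1, another planar polarity protein, went the other way, at 6.40 CPM against 24.5 in other nuclei, with a log2 ratio of −2.69 without doublets and −1.12 in libraries 5 to 8 alone, against −1.94 over all.

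Water, ion and solute transport genes gave 7 higher and 4 lower of 24 against other nuclei, beside 15.4% and 12.7% of all measured genes. Against astrocytes they gave none higher and 7 lower of 21, beside 12.1% and 7.69%. SLC14A1, a urea transporter, had 47.6, 81.5 and 187 CPM in libraries of ependymal nuclei, 9.56 times its level in other nuclei, and a ratio of 1.19 to astrocyte nuclei, which is no call. CA2, a carbonic anhydrase, had 3.30 CPM against 39.7 in astrocyte nuclei, ATP1B2, a sodium pump subunit of glia, 24.8 against 125, and SLC7A10, an amino acid exchanger of astrocytes, 1.03 against 36.5. SLC4A10, a bicarbonate transporter used by neurons and choroid plexus, had 126 CPM in ependymal nuclei against 452 CPM in other nuclei, with a log2 ratio of −2.59 without doublets, against −1.84 with them. Of the genes lower than in astrocytes, SLC7A10 had a log2 ratio of −5.74 without library 6, against −5.15, and ATP1B2 of −3.18 in libraries 5 to 8 alone, against −2.34.

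In the signalling list, 10 of 19 measured genes were called higher and none lower against other nuclei. Over all measured genes, the shares were 15.4% and 12.7%. Against astrocytes, 4 of 23 were called higher and 10 lower, beside 12.1% and 7.69% of all measured genes. BMP6, a secreted ligand, had 151 CPM in ependymal nuclei and 11.9 CPM in astrocyte nuclei, a ratio of 12.7 (10.8 to 14.9). The genes ID2 and ID3, which respond to such ligands, were lower, at 13.4 and 5.78 CPM in ependymal nuclei against 51.5 and 42.9 CPM in astrocyte nuclei. NOTCH1, a Notch receptor, had 38.4 CPM against 103, and HEY2, a Notch target, 24.6 CPM against 2.16 in other nuclei. GLI3, a transcription factor of the hedgehog pathway, had 301 CPM in ependymal nuclei, 53.2 in other nuclei and 605 in astrocyte nuclei, and so was called higher than in other nuclei and lower than in astrocyte nuclei, at a ratio of 0.497. WNT7A, a Wnt ligand, had 3 counts or 0.620 CPM against 30.1 CPM in astrocyte nuclei, 48.5 (16.5 to 236) times lower. Without library 3 the log2 ratio of WNT7A to astrocyte nuclei was −6.71 and without doublets −6.92, against −5.60 over all. In libraries 5 to 8 alone it was −3.49 for ID2 and −4.76 for ID3, against −1.94 and −2.89 over all.

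Against astrocytes, 1 of 32 measured anaesthetic targets was called higher and 5 lower, beside 12.1% and 7.69% of all measured genes, with a median log2 ratio of 0.06. The higher gene was GABRG3, the gamma-3 subunit of the GABA-A receptor, at 395, 482 and 564 CPM in libraries of ependymal nuclei, against 76.2 CPM in astrocyte nuclei, a ratio of 6.33 (5.91 to 6.79). Other nuclei as a whole had 425 CPM of GABRG3. Among the lower genes, GABRA2, an alpha subunit of that receptor, had 103 CPM against 488, GRIN2C, an NMDA receptor subunit, 15.9 against 103, and RYR1, a calcium release channel, 15.7 against 108. The log2 ratio of GABRA2 was −1.29 in libraries 5 to 8 alone and −2.85 without doublets, against −2.24 over all. Stress genes gave 5 higher of 19 against other nuclei, beside 15.4% of all measured genes, and none lower. Against astrocytes they gave none lower and 1 higher of 22, beside 12.1% of all measured genes called higher. That 1 gene was HSPH1, a heat shock protein, at 120.4 CPM against 36.0, while BCL2, which restrains apoptosis, had 346 CPM against 95.4 in other nuclei. Genes of glycolysis and the respiratory chain gave 4 higher of 19 against other nuclei, beside 15.4% of all measured genes, and 2 lower of 21 against astrocytes, beside 7.69%. ALDOC, the aldolase of astrocytes, was among the lower, at 13.2 CPM against 65.8.

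Members were also set beside the neighbours of ependyma on the ventricle wall. Of 11 choroid plexus markers in the matrix, FOLR1, KCNJ13 and TMEM72 were at 0 in members, and the list summed to 151 CPM in members (87.6 to 267 by library) and 109 CPM in other nuclei. Of 5 measured against other nuclei 1 was called higher, and of 4 measured against astrocytes 2 were, with none lower in either. Over all measured genes, 15.4% and 12.1% were called higher. OTX2, a marker in this list, had 6.82 CPM in members and 0.0522 CPM in other nuclei, below the minimum of 10 CPM. TTR, the transthyretin that choroid plexus secretes, had 15.9 CPM in ependymal nuclei and 16.9 in others. It was detected in libraries 1 to 4, at 17.4, 2.13, 21.7 and 26.4 CPM, and at 0 in members of libraries 5 to 8. Markers of tanycytes, the ependyma-like cells of the hypothalamic wall, summed to 147 CPM in members and 449.6 CPM in other nuclei, with RAX and DIO2 at 0. Markers of neural progenitors summed to 137 CPM (47.6 to 240.5 by library) against 124 CPM in other nuclei, with HES5 at 0 and MKI67, a gene of dividing cells, at 0.413 CPM.

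Ependymal nuclei of libraries 1 to 4 and of libraries 5 to 8 differed in several genes. FOXJ1 had 61.0, 74.5, 55.4 and 81.8 CPM in libraries 1 to 4 and 30.6, 16.3, 20.4 and 35.0 in libraries 5 to 8. GJA1 had 203, 196, 212 and 199 CPM in the first 4 and 44.2, 16.3, 54.4 and 83.2 in the other 4, and VIM 105, 95.8, 50.5 and 52.7 against 23.8, 13.1, 3.40 and 13.1. For these genes each of libraries 1 to 4 was above each of libraries 5 to 8. DEUP1 ran the other way, at 32.0, 21.3, 41.4 and 31.8 CPM in libraries 1 to 4 and 85.1, 71.8, 81.6 and 61.3 in libraries 5 to 8, and so did RBFOX3, a neuronal marker, at 36.2 to 102 CPM and 187 to 212 CPM. The genes of this paragraph are picked examples. How many of all measured genes part the libraries in this way was not counted, and levels of a few CPM in a library rest on very few UMIs. The sets of libraries also differ in depth, in what other nuclei they hold and possibly in group, and these cannot be told apart here. For members, libraries 1 to 4 were the deeper ones.

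**Figure D4:**
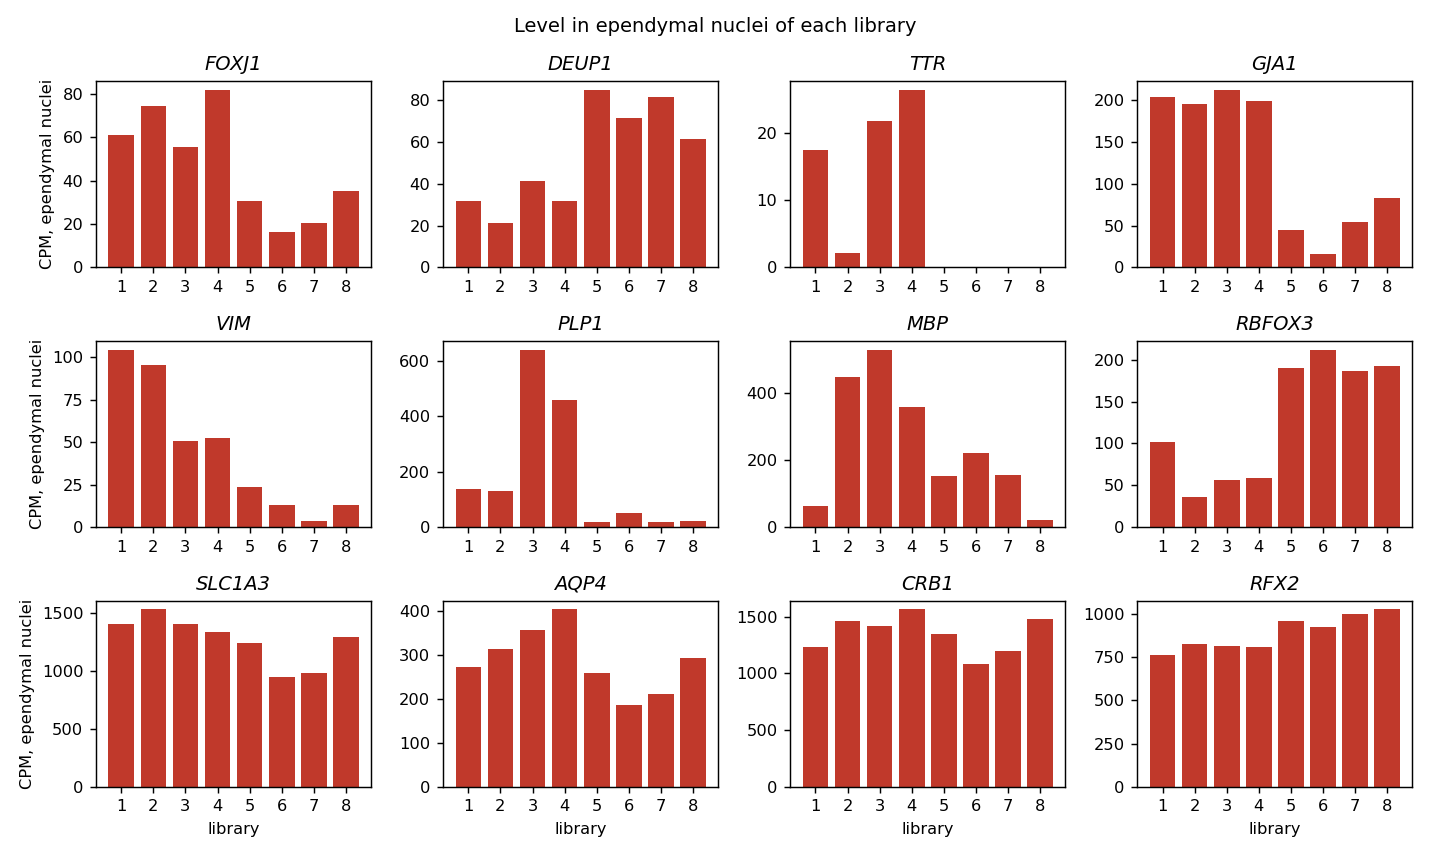
CPM of 12 genes in the ependymal nuclei of each of the 8 libraries, 1 bar per library and a linear axis from 0. FOXJ1, GJA1 and VIM are higher in libraries 1 to 4, DEUP1 and RBFOX3 in libraries 5 to 8, TTR is at 0 in libraries 5 to 8, and SLC1A3, CRB1 and RFX2 vary least.

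Within the members, a pair of gene sets tended to appear in different nuclei. The genes that mark them were chosen after their values were seen, and this is a description with no test. LMX1A, a homeobox gene of the dorsal midline in the mouse embryo, or RSPO2, a secreted enhancer of Wnt signalling, had a UMI in 285 members, of which 16.8% also had a UMI of the homeobox gene MEIS2. Among the 1004 members with neither LMX1A nor RSPO2, 72.7% had a MEIS2 UMI. Without doublets and nuclei that met another panel, the shares were 12.6% of 230 and 74.0% of 838. By these genes, 237 members (18.4%) had LMX1A or RSPO2 only, 730 (56.6%) had MEIS2 only, 48 (3.72%) had both and 274 (21.3%) had none. Of the 48, 35.4% were called doublets. The first set made up 39.5%, 31.0%, 24.6% and 19.5% of members in libraries 1 to 4, and 5.26%, 3.60%, 3.88% and 12.4% in libraries 5 to 8. Members were also shallower in libraries 5 to 8, and detecting a UMI depends on depth. LMX1A had a UMI in 10.2% of members and in 0 of 1850 microglia (exact interval up to 0.199%), and RSPO2 in 18.6% of members, 1.51% of microglia and 12.3% of neurons, whose median was 7781.5 UMIs. RSPO2 was not called against other nuclei, being higher in 7 of 8 libraries. MEIS2 had a UMI in 60.4% of members, 47.7% of astrocytes, 35.8% of neurons and 7.62% of microglia.

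The sets differed in further genes. These levels were taken in libraries 1 to 4, the only ones with at least 20 nuclei of each set, over 211 nuclei with LMX1A or RSPO2 only and 425 with MEIS2 only. Of 10256 measured genes, 2.52% were called higher in the first set and 1.66% higher in the second. CUX2, a homeobox factor also used by upper-layer neurons, had 770.4 CPM in the LMX1A or RSPO2 nuclei and 50.1 CPM in the MEIS2 nuclei, a ratio of 15.4 (12.4 to 19.2). RSPO3, a relative of RSPO2, had 80.7 CPM against 5.21, and WLS, which Wnt ligands need for secretion, 529 CPM against 188. LGI1, a secreted protein of synapses, had 695 CPM against 96.5, CORIN, a membrane protease, 315 against 28.7, and ITGA8, an integrin, 195 against 25.5. OTX2, a homeobox gene of forebrain midline and choroid plexus, had 23.9 CPM in the LMX1A or RSPO2 nuclei and 0 counts in the MEIS2 nuclei. The exact interval of its ratio began at 11.5, and a floor of 3 counts over the MEIS2 set gave 15.3. On the other side, SLC14A1 had 31.9 CPM in the LMX1A or RSPO2 nuclei and 263 CPM in the MEIS2 nuclei, 8.24 (5.76 to 12.2) times lower. FOXP2, a forkhead factor, had 85.7 CPM against 332, and ABI3BP, an extracellular matrix protein, 58.8 against 279. For each gene given here the direction was the same in the 4 libraries.

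The cilium genes given here were less than 2-fold apart between the sets. Nuclei of both sets were chosen on genes of the same structures, so this nearness is a description and no independent result. How many cilium genes were called between the sets is not given here. ARMC3 had 959.8 CPM in the LMX1A or RSPO2 nuclei and 977 CPM in the MEIS2 nuclei, and RFX2 796 against 846. FOXJ1 had 61.8 CPM against 78.2, a ratio of 0.790 (0.578 to 1.07), and DNAH12 754 against 958, a ratio of 0.788 (0.723 to 0.858), both lower in the LMX1A or RSPO2 nuclei of all 4 libraries. RFX3, at 1184 CPM against 1361, was also lower in all 4, with a ratio of 0.870 (0.812 to 0.932). Of the rule genes ADGB lay furthest apart, at 874 CPM against 1158, lower in all 4 libraries. CRB1 had 1110.3 CPM against 1737, and AQP4 236 against 446, both less than 2-fold apart.

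**Figure D5:**
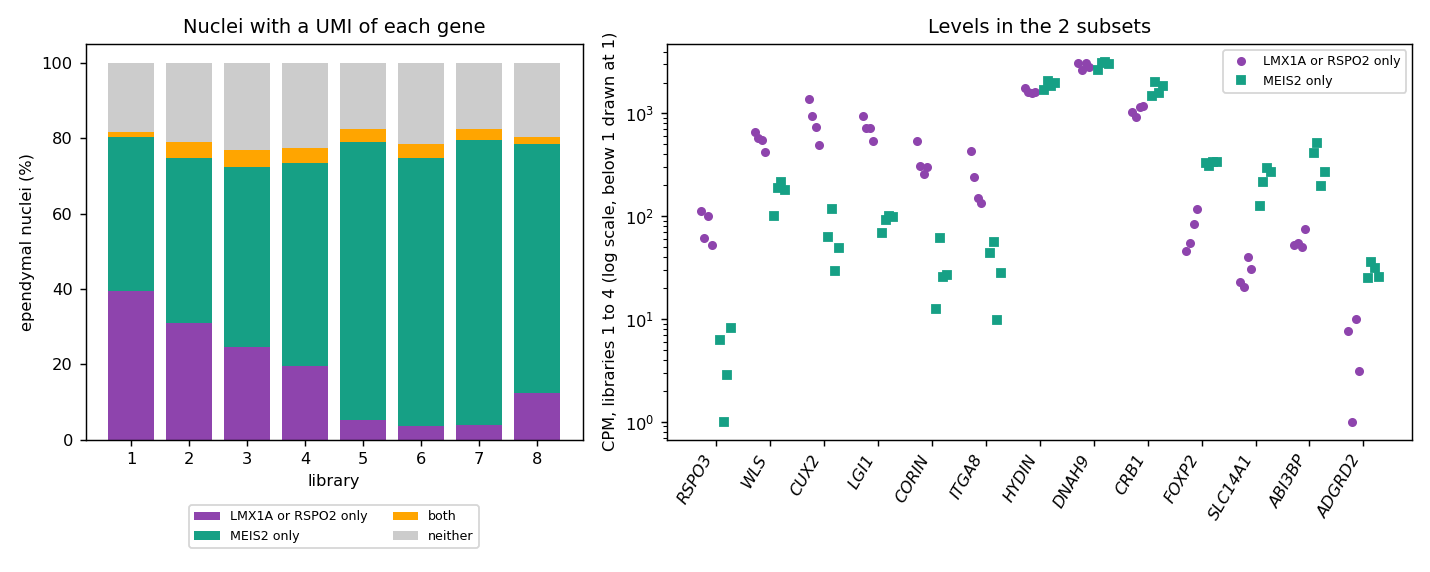
Left, percent of ependymal nuclei in each library with a UMI of LMX1A or RSPO2 only, MEIS2 only, both or neither. Right, CPM (log scale) of 13 genes in libraries 1 to 4, 1 point per library, for nuclei with LMX1A or RSPO2 only (circles) and MEIS2 only (squares): RSPO3, WLS, CUX2, LGI1, CORIN and ITGA8 are higher in the nuclei with LMX1A or RSPO2, FOXP2, SLC14A1, ABI3BP and ADGRD2 in those with MEIS2, and HYDIN and DNAH9, on which all members were chosen, lie close together.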

How the data were processed

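Nuclei from 8 samples were counted with unique molecular identifiers in 1 matrix. As deposited, the matrix holds raw UMI counts (whole numbers, with no scaling applied), written by Cell Ranger 3.1.0 per the file headers. CASAVA 1.8, Seurat and Cell Ranger appear in the submitters' processing notes, which do not say what each did. Aligner, genome build and annotation: not given in the sources used here. The matrix held 59749 barcodes, 21748 genes and 331133661 UMIs, and 1529 barcodes below 500 UMIs or 300 genes were removed, all in libraries 5 to 8. Genes had a symbol in the deposited table (17094 IDs) or one from a symbol table (17209 IDs in it).

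Members and gene lists (17 function lists of 437 genes, 410 in the matrix, and marker panels) were chosen with earlier results of these data known. Astrocyte and other classes needed a UMI of at least 4 genes of their 10-gene panel, 20 panel UMIs per 10000, no other panel met and no membership among ependymal nuclei. Raw counts were summed per class and library and given as CPM with exact Poisson intervals. Ratios had exact conditional binomial intervals, and shares Clopper-Pearson intervals. A gene was called at 10 CPM in the higher class, a ratio of 2 and the same direction in every library with at least 20 nuclei of both classes. A class at 0 was set to a floor of 3 counts. The calling was tested on simulated data. The genes named were, per comparison and direction, the 8 called genes of largest ratio, the 4 of highest CPM and up to 3 called genes per list, of which the text gives a part, with panel genes as values and genes of the subsets within members as said in the text.

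Doublets were scored within libraries by simulated sums (50 neighbours, 30 components, 2000 variable genes), and the highest scores were called at 0.8% per 1000 nuclei (3576 nuclei). They were kept in the levels given unless said otherwise. Alternatives changed the scaling, the CPM minimum, the limits on nuclei, the rule, doublets, mixed nuclei, library weights, free RNA and the libraries used, and those by depth of library and by panels other than that of astrocytes were chosen after the data had been seen. Python 3.11.15 with numpy 2.4.6, pandas 2.3.3, scipy 1.17.1, scikit-learn 1.9.0 and matplotlib 3.10.9, and R 4.3.3 with edgeR 4.0.16 for TMM factors, were used.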

Additional observations from a re-analysis of the deposited data

Results flagged for a closer look

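Of 87 levels per library checked among the named genes of ependymal nuclei, 6 had 1 library far from the other 7, and chance alone would mark about 1 in 20. AK7 stood at 429 CPM in library 8, against 333 CPM in the next library. CFAP46 stood at 91.9 CPM in library 8, against 69.4 CPM in the next. DNAI1 stood at 504 CPM in library 2, against 425 CPM in the next, and BCL2 at 477 CPM in the same library, against 353 CPM in the next. CELSR1 was lowest in library 6, at 35.9 CPM against 63.8 CPM in the next library up. TMEM231 was also lowest in library 6, at 157 CPM against 255 CPM in the next.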

How the results depend on the processing

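No paired analysis was possible because libraries carry no replicate number of a sample and no comparison between groups of samples was made. Promoter motifs were not run, since no promoter sequences were at hand. The share of ependymal nuclei, 2.21%, was 1.87% after thinning to 1000 UMIs, 2.10% at 40 rule UMIs per 10000, 1.51% with all 6 rule genes, 2.09% without doublets and 1.15% without members that met any other panel, most of which met that of astrocytes. It was 1.88% to 2.44% with 1 library left out, the lowest without library 3 and the highest without library 2. Without a CPM minimum, 2664 genes were lower than in other nuclei, against 1338, since genes with few counts then enter. The other counts of genes stayed within 1.5 times. With TMM scaling, 1486 genes were higher and 1512 lower than in other nuclei, and 49.6% of calls were higher, against 54.8%, with all log2 ratios shifted by −0.10. Of 83 named calls against other nuclei, 66 held in all 22 settings, and of 84 against astrocytes 74 did, with none reversed. With 1 library left out, 1639 to 1671 genes were higher and 1341 to 1408 lower than in other nuclei. Levels rest on 4841917 UMIs of members, so genes below about 10 CPM are set by few counts, and 1 sample gives no error between animals.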

Other observations

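CDC20B, whose locus in mammals also holds the multiciliated cell genes MCIDAS and CCNO, had 29 UMIs in members. Of these, 21 came from 1 nucleus of library 8 with 2131 UMIs and 1431 genes, of which 27 were rule-gene UMIs or 127 per 10000, and no other member had more than 1. The nucleus was singled out after its values were seen.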
